A study of Mus musculus with 6 samples.

Results

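The lysyl oxidase family of the mouse consists of Lox and its paralogues Loxl1, Loxl2, Loxl3 and Loxl4. All 5 genes, found by symbol through their Entrez gene IDs, were present among the 24594 gene IDs of an RNA-seq count table from small-intestinal organoids, and the question was which paralogue is switched on when active YAP is induced. The organoids were epithelial cultures from adult crypts of the proximal small intestine, grown in Matrigel with EGF, Noggin and R-spondin1. All carried the genotype TetON-hYAP/H2B-mCherry, in which doxycycline turns on human YAP, a constitutively active S127A mutant by the design text, together with a red fluorescent histone. There were 3 control libraries without doxycycline and 3 libraries given 1 µg/ml doxycycline for 48 h from passaging. No library had doxycycline without the transgene, so the drug, the histone and YAP cannot be told apart. Expression of the human YAP transgene itself was not analysed here, so its induction rests on the labels. The family was chosen by its counts with and without doxycycline in these libraries, so the values of its members are given as a description, without tests.

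Lysyl oxidases are copper-dependent amine oxidases that carry a quinone cofactor made from their own lysine and tyrosine side chains. They are mostly secreted and convert lysines of collagen and elastin into aldehydes, which then condense into the cross-links that stiffen the matrix. Lox and Loxl1 are made with a propeptide that the protease Bmp1 removes, whereas Loxl2, Loxl3 and Loxl4 carry repeated scavenger receptor cysteine-rich domains in front of the catalytic domain. In the gut wall, fibroblasts and smooth muscle are well known sources of these enzymes, and YAP is the coactivator of TEAD transcription factors at the end of the Hippo pathway.

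With doxycycline, Loxl4 went from almost no reads to the largest level in the family, and none of the other 4 members showed a comparable step. Loxl3 was the main member in the controls and its groups overlapped. Loxl2 was near the detection limit in both groups, and Lox and Loxl1 had 0 counts in all 6 libraries. Only Loxl3 and Loxl4 passed the filter on low counts, and Loxl4 passed it through its doxycycline libraries.

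The libraries held 8533452 to 16803062 counts. Control replicate 3, the library with the fewest, differed from the other controls in many genes, and its values are given below where they touch a result. Levels are in CPM, the counts of a gene relative to the library total after TMM scaling, which balances composition between libraries. Over all genes, 5850 of the 12909 tested (45.3%) had an edgeR adjusted p under 0.05. Of the tested genes 21.7% were called higher and 23.6% lower with doxycycline, and the median log2 fold change of all of them was -0.08. A gene outside the family that is said to have risen or fallen passed this threshold. The protocol text gives 1 animal per adult sample, but not whether control and doxycycline libraries share animals.

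Loxl4 (Entrez 67573) lies on the minus strand of chromosome 19, from 42592279 to 42612806 (GRCm38.p6, the assembly behind mm10). The controls held 0, 2 and 0 Loxl4 counts, and the doxycycline libraries held 663, 879 and 1072. In CPM these were 0, 0.154 and 0 without doxycycline, and 67.0, 81.3 and 75.8 with it. The groups were far apart, and the doxycycline libraries were close to each other, with a coefficient of variation of 9.64%. The mean was 74.7 ± 7.20 CPM (SD, n = 3) with doxycycline against 0.0513 ± 0.0889 in the controls.

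After scaling, the summed counts of 2614 and 2 gave a ratio of 1501 (95% exact binomial interval 415.2 to 12402, counting error only). The width of that interval comes from the 2 control counts, both of them in control replicate 2. Without that library Loxl4 was at least 675.9-fold higher, computed against 3 counts over the remaining controls, and without control replicate 1 the ratio was 859.9. The fitted log2 fold change was 10.28 (SE 0.515), a value that rests on the same 2 counts. It was 12.85 without control replicate 2 and 9.59 without control replicate 1.

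The reads counted for Loxl4 have no close relative to be confused with in the annotation. Of 4237 distinct 31-base words in its GENCODE M21 transcripts, 0 occur in transcripts of any other gene, on either strand. No other RefSeq gene overlaps the locus. Genes as quiet as Loxl4 in the controls rarely reached its level with doxycycline. Of 8933 gene IDs with at most 2 counts over the 3 controls, 7138 also had 0 counts in every doxycycline library and 311 were detected in all 3 of them. Just 2 averaged at least the 74.7 CPM of Loxl4, namely Loxl4 itself and Cavin2, a gene for a coat protein of caveolae. Both cut-offs were the values of Loxl4 itself, so this count is a description. Genes with slightly more control reads were left out of it, such as Clca4a (0.448 ± 0.254 to 328.4 ± 14.8 CPM).

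**Figure D1:**
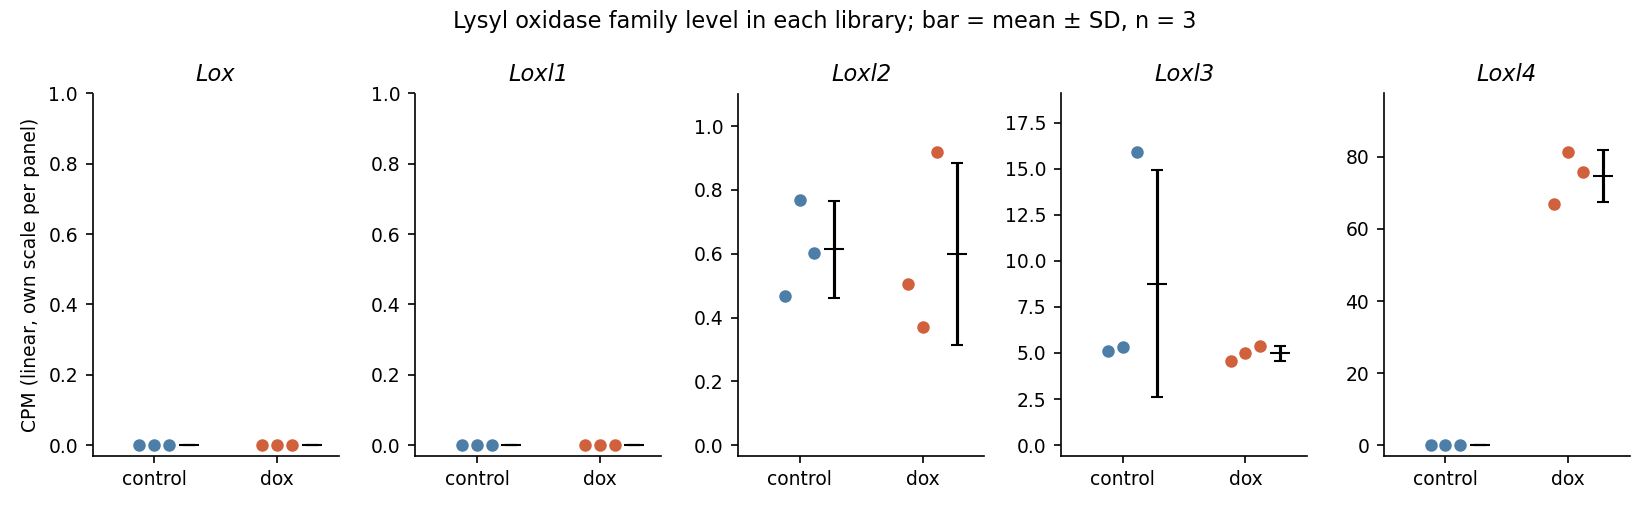
CPM of each family member in each library (points), with the group mean ± SD beside them (n = 3), on a linear axis of its own for each gene. Loxl4 sits at 0 to 0.154 CPM in the controls and at 67.0 to 81.3 with doxycycline, Loxl3 is high in control replicate 3 alone, and Lox and Loxl1 stay at 0.

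RefSeq's promoter table of GRCm38.p6 held 1 of the 5 members, Loxl4, and its sequence is shown because this is the promoter of the member that was switched on. The window chr19:42612757-42613056, minus strand, covers 250 bases before and 50 after the annotated start. It is printed 5′ to 3′, with capitals marking each match to GGGCGG, the GC box bound by Sp/KLF factors.
Loxl4 promoter: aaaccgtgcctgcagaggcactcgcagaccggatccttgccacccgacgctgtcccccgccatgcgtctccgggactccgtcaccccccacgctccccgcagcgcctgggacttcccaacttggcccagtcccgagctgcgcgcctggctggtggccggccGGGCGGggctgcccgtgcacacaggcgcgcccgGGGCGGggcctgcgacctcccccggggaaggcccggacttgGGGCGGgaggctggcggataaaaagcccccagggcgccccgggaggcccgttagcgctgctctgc
The window is 75.0% G and C, against a median of 52.7% over the 32851 promoter windows of the table. GGGCGG begins at positions -89, -56 and -15 relative to the start and at least 1 match on either strand occurs in 35.7% of all windows. The TEAD core GGAATG was not found on either strand of the window, and 14.7% of all windows hold it. Neither the AP-1 motif TGANTCA (7.81% of windows), the TATA box TATAAA (13.6%), the hypoxia response core ACGTG (19.6%) nor the E-box CANNTG (72.3%) was found, each searched on both strands. These letters were looked for in this window alone, and more distant elements were not searched.

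Loxl3 (Entrez 16950, chromosome 6, 83034205 to 83052566) encodes a relative of Loxl2 that is known from palate, cartilage and muscle attachment. Its counts were 87, 69 and 158 in the controls and 45, 54 and 76 with doxycycline. That is 5.09, 5.31 and 15.9 CPM against 4.55, 5.0 and 5.37 CPM. Control replicate 3 stood alone at a high level, while both other controls lay within the range of the doxycycline libraries. Means were 8.77 ± 6.18 and 4.97 ± 0.411 CPM. The fitted log2 fold change of -0.80 (SE 0.478) became -0.04 without control replicate 3, so the apparent decrease rests on that library.

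Part of the Loxl3 row is ambiguous. The 3′ end of Loxl3 overlaps Htra2 (83051266 to 83054571), a gene for a mitochondrial protease on the opposite strand in GENCODE M21, and 9.84% of the 31-base words of Loxl3 also occur in Htra2 transcripts. Whether the authors counted by strand is not given in the sources used here. Htra2 had 46.2 ± 17.3 CPM in the controls and 65.0 ± 10.3 with doxycycline, a difference that did not pass the test (log2 fold change 0.49, SE 0.309, edgeR adjusted p = 0.232; 0.0837 to 0.906 over the alternatives). In control replicate 3 Htra2 had 264 counts, its fewest in any library, whereas Loxl3 had its most there.

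Loxl2 (Entrez 94352, chromosome 14, 69608692 to 69695834), which cross-links type IV collagen and is also known as a partner of Snail in the nucleus, gave 8, 10 and 6 counts in the controls and 5, 4 and 13 with doxycycline. In CPM these were 0.468, 0.770 and 0.604, and 0.506, 0.370 and 0.919. The groups overlapped throughout. The ratio of summed counts was 1.05 (95% exact binomial interval 0.563 to 1.96, counting error only). It was 0.725 (0.297 to 1.62) without doxycycline replicate 3. The interval leaves out the spread between libraries, so changes within it, and possibly larger ones, could be missed at this depth. The locus is also overlapped by the long non-coding gene Gm27177, and 46.4% of the 31-base words of Loxl2 occur in transcripts of other genes, so its low counts are uncertain.

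Lox (Entrez 16948, chromosome 18, 52516060 to 52529867), the founding enzyme for collagen and elastin cross-links, and Loxl1 (Entrez 16949, chromosome 9, 58287723 to 58313212), which acts in elastic fibre upkeep, had 0 counts in every library. A count of 0 allows up to 3 counts, or 0.175 to 0.303 CPM depending on the library. Over a whole group the limit was 0.0750 CPM for the controls and 0.0861 CPM for the doxycycline libraries. Lox and Loxl1 share 2 of their 31-base words with each other, and no other pair of members shares any.

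Levels of different genes can be set side by side once divided by transcript length, here that of the longest coding transcript in GENCODE M21. The family summed to 1.33, 1.48 and 3.99 CPM per kb in the controls and to 19.1, 23.0 and 21.8 CPM per kb with doxycycline. In the controls Loxl3 led with 2.14 ± 1.51 CPM per kb, followed by Loxl2 with 0.115 ± 0.0284 and Loxl4 with 0.0137 ± 0.0238. The ranges of Loxl3 and Loxl2 did not meet, and Loxl4 was below the limit that 0 counts allow. With doxycycline the order was Loxl4 with 20.0 ± 1.93, Loxl3 with 1.21 ± 0.100 and Loxl2 with 0.113 ± 0.0538 CPM per kb, again without overlap between neighbours. Lox and Loxl1 could not be ordered in either group.

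As a share of the family sum per length, Loxl3 made up 92.7 ± 4.89% in the controls and 5.71 ± 0.377% with doxycycline. Loxl4 made up 0.926 ± 1.60% and 93.8 ± 0.616% (SD, n = 3 per group). The fall in the share of Loxl3 goes with the rise of Loxl4 in the sum, since the level of Loxl3 itself overlapped between the groups. Among the 20462 genes with a transcript length, those with a higher level per kb than Loxl4 in the doxycycline libraries were 23.7 to 27.7% of the genes detected there. For Loxl3 that share was 62.0 to 76.1% over all 6 libraries, so the leading member of the controls was itself a gene of low level.

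**Figure D2:**
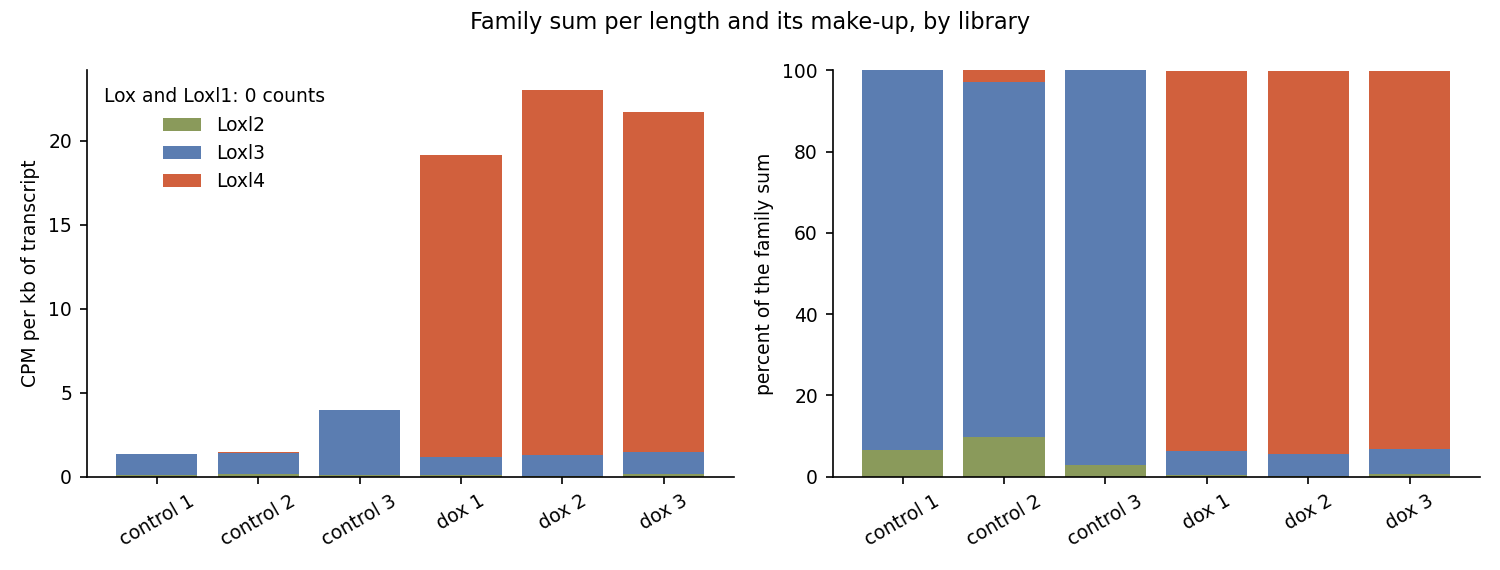
CPM per kb of transcript summed over the family (left) and each member as a percent of that sum (right) for the 6 libraries, both axes linear. Loxl3 fills 87.5 to 97.2% of the control bars and Loxl4 fills 93.2 to 94.4% of the doxycycline bars, in which the Loxl3 segment on the left is about as tall as in control replicates 1 and 2.

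None of the 6 neighbours of Loxl4 that were tested was called higher. Over all genes tested 21.7% were called higher and 23.6% lower, so 6 genes are too few to show a difference from that. The 5 genes of the table on either side were taken by position, after the values of Loxl4 were known, and 6 of these 10 passed the filter. R3hcc1l, whose RefSeq end lies 5 bases from the 3′ end of Loxl4, had 28.5 ± 4.89 CPM without and 31.7 ± 1.70 CPM with doxycycline (log2 fold change 0.15, edgeR adjusted p = 0.532), and its sign turns with total counts as the scaling (-0.29). Hps1, 142.4 kb from the start of Loxl4 on the other side, had 9.58 ± 4.12 and 7.76 ± 1.40 CPM (adjusted p = 0.507). The transaminase gene Got1 had 48.5 ± 21.7 and 71.9 ± 6.85 CPM (adjusted p = 0.168), and without control replicate 3 it passed (log2 fold change 1.01). The genes that passed were lower. The Wnt antagonist gene Sfrp5, beyond R3hcc1l, fell from 24.0 ± 1.83 to 0.352 ± 0.325 CPM (log2 fold change -6.17, SE 0.518, adjusted p = 2.35e-04). Golga7b fell from 5.11 ± 0.723 to 0.781 ± 0.678 CPM (adjusted p = 0.0234) and Cnnm1 from 20.1 ± 4.74 to 11.2 ± 1.39 CPM (adjusted p = 0.026). These last 2 calls were lost under 4 and 6 of the 13 alternatives, with adjusted p of up to 0.063 and 0.101.

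**Figure D3:**
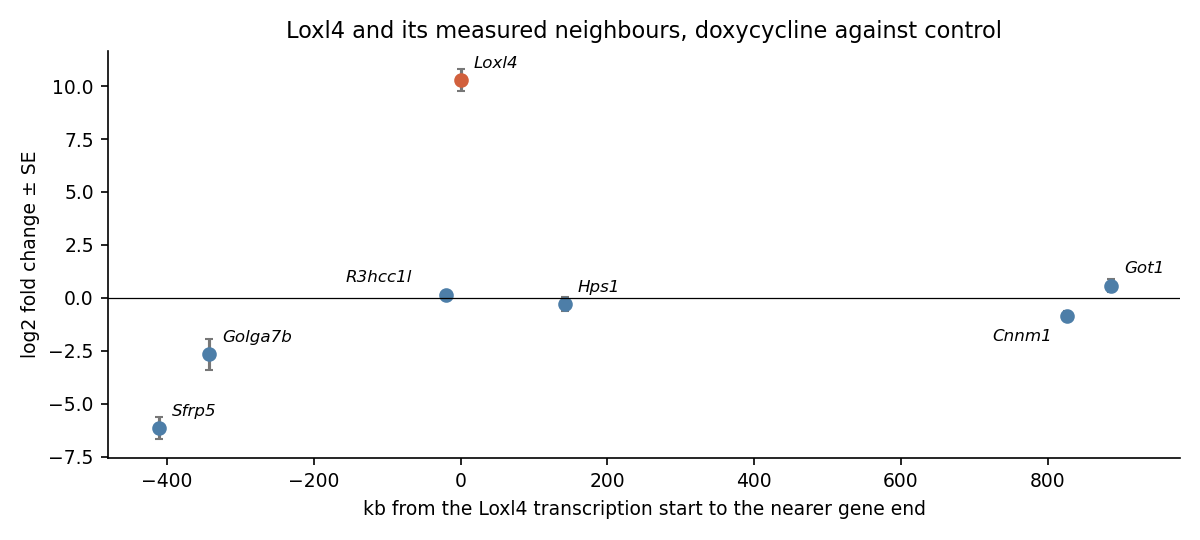
Fitted log2 fold change ± SE of Loxl4 and of the 6 neighbours that passed the filter against distance in kb from the Loxl4 start to the nearer end of each gene. Loxl4 stands at 10.28, a fit that rests on 2 control counts, and the neighbours lie between -6.17 and 0.57.

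Profiles like that of Loxl4 were ranked by the root mean square difference of mean-centred log2 CPM (prior count 2) over the 6 libraries, among 10100 genes that averaged 5 CPM or more. The nearest was Ly6m, a Ly6 family gene, at 0.61 (0.835 ± 0.383 to 159.5 ± 6.84 CPM). Next came Serpinb9b, a clade B serpin, at 0.721 (2.77 ± 0.642 to 431.6 ± 66.9 CPM) and Cavin2 at 0.754 (0 counts to 152.8 ± 10.3 CPM, at least 2055-fold higher against 3 counts over the controls, and 1177-fold without control replicate 1). Clca4a, of the chloride channel accessory family, stood at 0.816 (0.448 ± 0.254 to 328.4 ± 14.8 CPM) and Pbp2, of the phosphatidylethanolamine-binding family, at 0.862 (0.326 ± 0.134 to 61.7 ± 1.94 CPM). All 5 were low in each control and high in each doxycycline library, and they were picked for that likeness. With the libraries in just 2 groups a high correlation is common, and 388 of the 10100 genes had a Pearson r over 0.99 with Loxl4. Ly6m, Serpinb9b and Clca4a belong to gene families, and reads shared with their relatives were not measured.

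Matrix genes and genes for steps around the lysyl oxidases were read from 8 lists, called pathway lists here. They had 128 genes in the table, of which 68 passed the filter, 30 rose and 8 fell. The share called among them was 55.9%, against the 45.3% of all genes tested. That share was uneven. It ran from 25% to 100% by list, the 25% being of 4 genes tested and the 100% of 1. The basement membrane list had 80% of 15 tested genes called and the copper handling list 27.8% of 18. Some genes passed the filter only through the group where they were high. Col4a5 had 2 counts over the controls and 51 over the doxycycline libraries, Efemp1 12 and 1012, and Snai2 44 and 0. The shares are therefore a description. Of 22 type IV collagen, laminin and other basement membrane genes, 15 passed the filter, 11 rose and 1 fell, and the median log2 fold change of the 15 was 2.17. Col4a1, a chain of the commonest type IV collagen, had 0.468, 1.15 and 3.02 CPM in the controls and 65.6, 52.2 and 50.5 with doxycycline (log2 fold change 5.27, SE 0.578, edgeR adjusted p = 6.1e-04). Its partner chain Col4a2 rose by 5.19 (SE 0.259) to 85.2 ± 11.8 CPM. Nid1, which links laminin to collagen IV, had 4.56, 4.70 and 3.42 CPM against 218.6, 184.9 and 168.8 (log2 fold change 5.48, adjusted p = 3.15e-05). The groups did not overlap for any of these. Agrn, a heparan sulfate proteoglycan, rose from 116.5 ± 8.75 to 525.3 ± 28.3 CPM. The member that fell, the perlecan gene Hspg2, is named here although the naming rule left it out (12.9 ± 7.90 to 3.66 ± 0.646 CPM, adjusted p = 0.0166), and no gene of this list was called lower with any doxycycline library left out.

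Of 17 fibrillar and fibril-associated collagens, 1 passed the filter. It was Col11a2, which rose from 0.578 ± 0.170 to 2.37 ± 0.901 CPM (log2 fold change 2.01, adjusted p = 0.0102). Col1a1 had 0 counts in every library and Col3a1 had 2 over the controls and 0 over the doxycycline libraries. Of 18 elastic fibre genes, 7 passed the filter, 2 rose and 1 fell (median -0.60, or 0.00 with no low-count filter). That is 42.9% of the 7 called, near the 45.3% of all genes tested. Elastin itself, Eln, had 0 counts in the controls and 20 over the doxycycline libraries, at 1.42, 0 and 0.424 CPM, and was not tested. Efemp1, the fibulin-3 gene, rose from 0.117, 0.308 and 0.604 CPM to 36.7, 26.2 and 25.9 CPM (log2 fold change 6.53, SE 0.461, adjusted p = 1.34e-04). Mfap3 rose from 45.7 ± 17.0 to 103.4 ± 5.68 CPM and Fbln2, the fibulin-2 gene, fell from 1.44 ± 0.204 to 0.430 ± 0.0296 CPM. The call for Mfap3 was lost under 4 of the 13 alternatives, at adjusted p of up to 0.0717, and that for Fbln2 under 1, with the replicate number as a block (adjusted p = 0.05).

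**Figure D4:**
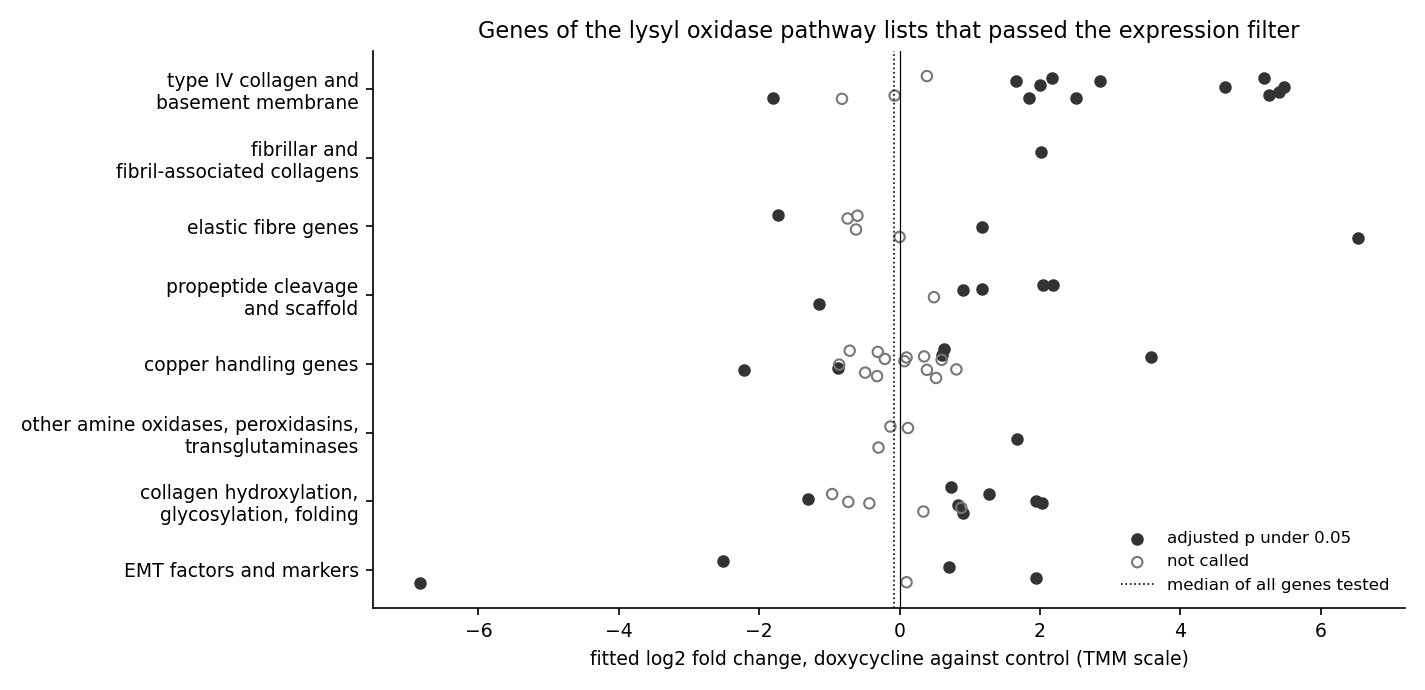
Fitted log2 fold change of each gene that passed the filter in the 8 pathway lists, 1 point per gene, with filled points for an adjusted p under 0.05 and vertical jitter without meaning. The basement membrane list reaches 5.48 with 11 of 15 points called higher. Copper handling genes run from -2.21 to 3.58, and their median of 0.09 lies near that of all genes (-0.08, dotted line).

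Of 16 genes for propeptide cleavage and matrix scaffolds, 6 passed the filter, 4 rose and 1 fell (median 1.05, or -0.06 over all its genes with no low-count filter). That is 83.3% of only 6 genes called, against 45.3% of all genes tested. Bmp1, the protease that releases active Lox, had 3.57, 2.85 and 5.94 CPM in the controls and 1.82, 1.30 and 2.33 with doxycycline. The groups did not overlap, yet its call (log2 fold change -1.15, adjusted p = 0.0489) was lost under 9 of the 13 alternatives, with adjusted p of 0.0129 to 0.158 over all of them. The proprotein convertase gene Pcsk6 rose from 40.5 ± 6.61 to 167.8 ± 7.71 CPM (adjusted p = 2.27e-04) and Pcolce, an enhancer of Bmp1, from 1.90 ± 1.23 to 8.93 ± 1.36 CPM. Furin rose from 89.8 ± 20.0 to 169.3 ± 3.35 CPM and Pcsk5 from 101.9 ± 40.2 to 230.7 ± 40.9 CPM, calls that were lost under 1 and 5 alternatives with adjusted p of up to 0.0829 and 0.0703. Fn1, the fibronectin scaffold on which Bmp1 and Lox meet, had 0 counts in the controls and 4 in all with doxycycline.

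Of 19 copper handling genes, 18 passed the filter, 3 rose and 2 fell (median 0.09). So 27.8% were called, against 45.3% of all genes tested. Scaling by total counts moved that median to -0.35. The copper importer gene Slc31a1 rose from 200.4 ± 30.8 to 310.8 ± 14.5 CPM (log2 fold change 0.63, adjusted p = 0.0216), a call lost under 5 alternatives (up to 0.378). Atp7a, the pump that loads copper into secreted enzymes, had 13.4, 10.2 and 1.31 CPM against 7.48, 17.5 and 19.2, and the groups overlapped (adjusted p = 0.393). Sod3, a secreted copper enzyme, rose from 0.448 ± 0.254 to 5.45 ± 1.05 CPM. The metalloreductase gene Steap3 fell from 18.3 ± 1.77 to 3.98 ± 1.11 CPM and Sco2, a copper chaperone of mitochondria, from 78.9 ± 28.8 to 43.2 ± 1.23 CPM, the latter call being lost under 4 alternatives (up to 0.111). Without control replicate 3, 7 genes of this list were higher and 3 lower, and with any doxycycline library left out 1 was higher and 1 lower. Calls over all genes moved the same way. They numbered 9286 without control replicate 3 and 3836 to 4245 with a doxycycline library left out, against 5850 with all libraries.

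Of 8 genes for other copper amine oxidases, peroxidasins and transglutaminases, 7 were in the table and 4 passed the filter. Of these 4, 25% were called, against 45.3% of all genes tested. Aoc3, a copper amine oxidase, rose from 0.870 ± 0.217 to 2.84 ± 0.357 CPM (adjusted p = 0.00629), and none of them fell, although 2 did when scaled by total counts. Pxdn, the peroxidase that joins collagen IV molecules by another bond, had 18 counts over the controls and 6 over the doxycycline libraries and did not pass the filter. Of 18 genes that hydroxylate, glycosylate or fold collagen, 12 passed the filter, 6 rose and 1 fell (median 0.79, or -0.04 with no low-count filter). That is 58.3% of the 12 called, against 45.3% of all genes tested. The collagen lysyl hydroxylase gene Plod1 rose from 1.85 ± 0.667 to 7.44 ± 2.07 CPM, the prolyl hydroxylase gene P3h1 from 0.908 ± 0.386 to 3.45 ± 0.342 CPM and the glycosyltransferase gene Colgalt1 from 99.5 ± 2.00 to 165.9 ± 9.72 CPM. The call for Colgalt1 was lost with total counts as the scaling (adjusted p = 0.127), under which 2 genes of this list were higher and 3 lower, and 3 were higher without doxycycline replicate 2. Plod2, whose product marks telopeptide lysines for stable cross-links, had 2.65 ± 0.766 and 1.57 ± 0.134 CPM (adjusted p = 0.111; 0.021 with total counts). Crtap, a partner of P3h1, fell from 7.92 ± 1.69 to 3.20 ± 0.626 CPM.

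Loxl2 and Loxl3 are also known for their link to Snail factors and epithelial-mesenchymal transition. Of 11 genes of that list, 5 passed the filter, 2 rose and 2 fell (median 0.10, -0.34 when scaled by total counts and -1.20 with no low-count filter). That is 80% of only 5 genes called, against 45.3% of all genes tested. Snai2 had 0.994, 0.847 and 1.61 CPM in the controls and 0 counts with doxycycline, at least 12.8-fold lower against 3 counts over the doxycycline group and at least 7.58-fold lower without doxycycline replicate 3. Vim, the vimentin gene, fell from 4.85 ± 1.29 to 0.826 ± 0.272 CPM. Snai3 rose from 4.67 ± 0.679 to 18.0 ± 2.51 CPM and Cdh1, the E-cadherin gene, from 800.1 ± 140.3 to 1298 ± 35.4 CPM. The call for Cdh1 was lost under 5 alternatives, at adjusted p of up to 0.266.

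Markers of the epithelium and of other cell types were measured in the same libraries. Their part in the values of the lysyl oxidases was not tested. The 8 epithelial markers all passed the filter, and 6 of them rose. That is 75% of 8 genes, where 45.3% of all genes tested were called and 21.7% called higher. Cdh1, 1 of the 6, lost its call under 5 of the 13 alternatives. The 8 markers summed to 4813 to 5778 CPM in the controls and 18929 to 20136 CPM with doxycycline. Most of that difference was in the keratin genes Krt8, Krt18 and Krt19 (log2 fold changes 2.68, 2.90 and 2.47). Epcam (-0.14, edgeR adjusted p = 0.745) and Cdx2 (0.37, adjusted p = 0.107) were not called, and Epcam had 0.34 and passed without control replicate 3. Of 16 mesenchymal markers, 1 passed the filter, Tagln, the gene of an actin-binding protein (6.86 ± 1.25 to 18.4 ± 1.98 CPM). The other 15 together summed to 0.462 to 1.71 CPM in the controls and 0.607 to 1.30 CPM with doxycycline. Of these 15, Dcn, Lum, Col1a1, Thy1 and Twist2 had 0 counts in all libraries. The others had few reads, for example Pdgfra with 4 counts over the controls and 12 over the doxycycline libraries, and Pdgfrb with 14 and 0. The 9 endothelial markers summed to 2.46 to 4.73 and 2.93 to 3.82 CPM, and 2 of them passed the filter. The angiopoietin receptor gene Tek was higher (edgeR adjusted p = 0.0154, a call lost under 5 of the 13 alternatives at up to 0.068). Eng was not called (log2 fold change -0.45, edgeR adjusted p = 0.486). Of those not tested, Pecam1 had 30 counts over the controls and 15 over the doxycycline libraries. Vwf had 18 and 2, and Tie1 had 0 and 13. The 10 immune markers summed to 22.9 to 45.8 and 30.3 to 32.3 CPM, most of it Csf1r, with the pan-leukocyte gene Ptprc at 0 counts in the controls and 2 with doxycycline. In bulk RNA, a change in the number of cells that express a gene and a change in RNA per cell cannot be told apart.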

How the data were processed

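RNA-seq was made from 6 organoid libraries in 2 groups of 3, grouped by the sample titles. The authors deposited whole-number read counts per Entrez gene. Per the labels' protocols, RNA was extracted by column and TruSeq libraries were run on a NextSeq. The submitters' processing notes name mm10 as the build. Aligner, counting tool, annotation and strand setting are not given in the sources used here. RefSeq's table (GRCm38.p6) gave symbols for 24570 of 24594 IDs. The other 24, with 2.88 to 4.43% of the counts of a library, stayed in.

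The test was that of edgeR 4.0.16 in R 4.3.3: filter by group, TMM (factors 0.843 to 1.169), robust quasi-likelihood F-test, Benjamini-Hochberg adjustment over all 12909 genes, threshold 0.05. No set test was run. Each p-value sets the difference between the groups against the spread between these libraries, estimated in part from all genes. Named genes were the members, the 4 called genes of smallest adjusted p in each list, 13 fixed genes and the 5 profiles nearest to Loxl4. A gene the rule names is not reported here. Neighbours and marker genes were added later. The members and lists were chosen with earlier results of these data known. Alternatives were RLE factors, total counts, other low-count filters, DESeq2 1.42.0, limma-voom 3.58.1, the replicate number as a block and each library left out.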

Additional observations from a re-analysis of the deposited data

How the results depend on the processing

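All 13 alternatives kept Loxl4 higher with doxycycline. Its fitted log2 fold change was 9.87 to 10.57 under the other scalings, filters and tools and 9.59 to 12.85 with each library left out. The log2 fold change of Loxl3 was -1.24 to -0.52 under the same alternatives and -1.08 to -0.04 with each library left out. The share of Loxl4 in the doxycycline family sum was 93.0% from counts without division by length and 93.4 to 94.1% with each library left out. The share in the controls was 0 to 1.39%. The number of genes called was 3836 to 9286 with each library left out. It was 9286 without control replicate 3, 3862 without doxycycline replicate 2 and 3836 without doxycycline replicate 3. With total counts as the scaling, 1747 genes were higher and 5131 lower, and the median of all genes was -0.52; all directions given are those on the TMM scale. Pathway genes called numbered 27 to 46 with each library left out.

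Same-numbered control and doxycycline libraries had correlations of -0.30, 0.12 and -0.19 between their deviations from the group means. Differently numbered ones had -0.22 to 0.29. With 3 libraries per group these values cannot decide whether same-numbered libraries share animals. With the replicate number as a block, 4509 genes and 31 pathway genes were called, the log2 fold change of Loxl3 was -0.62 and that of Loxl4 was 10.28.

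Of 598 values of genes outside the family under the alternatives, 50 lost their call and 5 turned sign. Got1, Csf1r and Epcam gained a call without control replicate 3, and Plod2 gained one with total counts. With each library left out, Hps1 ran from -0.51 to 0.11, Csf1r from -0.30 to 0.34 and Epcam from -0.35 to 0.34. The signs that turned were those of R3hcc1l with total counts (-0.29), Csf1r with limma-voom (0.02), and Hps1 (0.11), Csf1r (0.34) and Epcam (0.34) without control replicate 3. Calls among list genes ranged from 11 to 12 higher for the basement membrane list, 1 to 7 for copper handling, 2 to 8 for collagen modification and 2 to 5 for propeptide cleavage. Depth limits Lox, Loxl1 and Loxl2, and the interval on the Loxl4 ratio covers counting error only.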
